A study of Rattus norvegicus with 6 samples.

Results

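The Notch pathway was described through 10 of its genes, the transcriptional repressors Hes1, Hes5 and Hey1, the receptors Notch1, Notch2 and Notch3, the ligands Dll1, Jag1 and Jag2, and the DNA-binding effector Rbpj. The members were all probe sets that the platform annotation assigns to exactly 1 of these symbols, 14 probe sets of the 31099 on the array. They are 10 of the 14219 genes that the annotation names by probe sets with a single symbol. The genes were selected with their gabazine-minus-control values in view, Hes1 being known as lower, so the member values are a description, and limma's calls on them are printed only beside the share over the whole array and are no test of these genes. RNA was taken from rat (Wistar) organotypic hippocampal cultures, slices of tissue kept alive outside the animal, prepared from pups of postnatal day 4 per the labels. The 3 gabazine samples received 20 µM gabazine, a blocker of the GABA-A receptor, for 90 min, and the 3 control samples were left untreated. In each replica the cultures of a pair of littermates were divided between the conditions, so each gabazine array was compared with the control array of its own replica, which gives 3 pairs. Each array therefore measured pooled cultures holding neurons, glia and other cells together, and fewer cells of a type cannot be told apart from less RNA per cell.

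Notch receptors are cut when a Delta or Jagged ligand on a neighbouring cell binds them, and the released intracellular domain joins Rbpj in the nucleus and switches on genes such as Hes1, Hes5 and Hey1. The Hes and Hey proteins are basic helix-loop-helix repressors that hold down proneural genes and their own promoters. In the developing and postnatal hippocampus the pathway is known for keeping neural stem cells and astrocyte precursors undifferentiated, and some of its components are also used by neurons.

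The promoters of Hes1 and Hes5 hold letters that Rbpj is known to bind, and are shown for this reason. Of the 10 genes, 9 had a window of 300 bases around the annotated start site (250 before to 50 after) in RefSeq on the rat assembly GRCr8, with 11 windows in all, and Hey1 had none. Below are the 250 bases before the Hes1 start site and the 184 bases of the Hes5 window that end 67 bases before its start site, just ahead of the first annotated base of the gene. Runs of 7 capitals mark the RBPJ motif GTGGGAA, and runs of 6 capitals mark the N box CACNAG, which Hes proteins are known to bind, each on either strand.
Hes1, chr11:84213046-84213295, minus strand: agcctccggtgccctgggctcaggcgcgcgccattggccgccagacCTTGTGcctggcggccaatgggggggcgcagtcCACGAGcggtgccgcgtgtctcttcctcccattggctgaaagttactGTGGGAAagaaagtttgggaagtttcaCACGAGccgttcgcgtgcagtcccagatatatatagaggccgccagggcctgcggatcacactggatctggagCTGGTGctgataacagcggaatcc
Hes5, chr5:170804327-170804510, plus strand: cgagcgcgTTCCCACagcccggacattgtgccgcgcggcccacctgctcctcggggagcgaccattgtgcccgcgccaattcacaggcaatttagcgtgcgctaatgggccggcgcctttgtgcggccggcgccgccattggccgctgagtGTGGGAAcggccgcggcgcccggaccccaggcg

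The Hes1 window held 1 RBPJ motif, 124 bases before the start site, and 4 N boxes at 204, 171, 97 and 24 bases before it, counted at their first base. Hes1 also held 2 class C sites (CACGCG, a further letter string of Hes and Hey proteins, not capitalised above), at 159 and 86 bases. No matches overlapped each other in this window. The Hes5 window held 2 RBPJ motifs, at 242 and 99 bases before the start site, in opposite orientations, and no N box. Over all 33469 rat windows of the same length, 6.29% held the RBPJ motif, 43.1% an N box, 8.5% a class C site and 6.42% the E box CACGTG, with both strands searched.

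Among the 9 genes with a window, 3 held the RBPJ motif (Hes1, Hes5 and Dll1), 3 held an N box (Hes1, Notch1 and Notch3), 4 held a class C site (Hes1, Jag1, Jag2 and Notch2) and 0 held the E box. Notch1 had 4 N boxes, of which those starting 28 and 26 bases before the start site overlapped on opposite strands. The Rbpj windows held none of the 4 letter strings, which says only that these letters are not in those bases. A letter match is a description of the sequence and not a measured binding site.

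**Figure D1:**
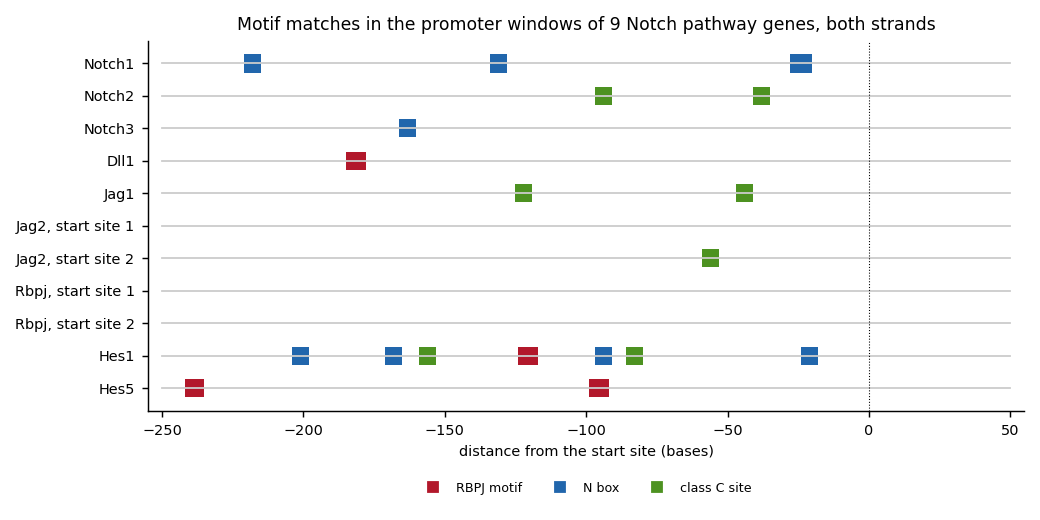
Positions of the RBPJ motif, N box and class C site in the promoter windows of 9 Notch pathway genes, with distance from the start site in bases on the x axis and 1 line per window. The Hes1 window holds 1 RBPJ motif, 4 N boxes and 2 class C sites, and the Hes5 window holds 2 RBPJ motifs.

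The treatment was visible in the activity-dependent genes Arc, Nr4a1, Egr1 and Fos, whose mean log2 ratios over the pairs were 2.78 (limma standard error 0.40), 2.63 (0.29), 1.32 (0.14) and 1.00 (0.07). A further Fos probe set had 0.08. Across the whole array, the ratios of pair 1 had the widest spread (SD 0.475), with 0.247 for pair 2 and 0.230 for pair 3. Exact ties, with 1 value repeated on both arrays of a pair, made up 16.1%, 24.1% and 25.7% of the array in order of pair number, and touched 14754 probe sets at least once. Pair 1 also differed in RNA measures, since the log2 ratio at the 5′ end of beta-actin exceeded that at the 3′ end by 1.70, whereas pairs 2 and 3 gave -0.25 and 0.10. The same difference for GAPDH was 0.50, 0.04 and -0.08, and for hexokinase 0.38, -0.02 and -0.12. The part of these differences in the values below was not tested.

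The cultures expressed markers of several cell types. Neurod6, of pyramidal neurons, had log2 intensities of 12.41, 11.77 and 12.90 in gabazine samples and 12.63, 10.87 and 12.73 in control samples. Gfap, the intermediate filament of astrocytes, had 14.98, 14.79 and 15.19 in gabazine samples and 14.92, 14.75 and 15.10 in control samples. The mean log2 level of the 10 astrocyte genes ranged over 10.69 to 11.76 in gabazine samples and 10.60 to 11.26 in control samples. For the 8 radial glia and progenitor genes it was 9.78 to 10.50 in gabazine samples and 9.80 to 10.41 in control samples, and for the 10 neuronal genes 10.19 to 10.91 in gabazine samples and 9.82 to 10.81 in control samples. In each of 10 marker lists limma called 0 probe sets at an adjusted p under 0.05, beside 0% of all probe sets, those of Arc and Nr4a1 included. At an unadjusted p under 0.05 it gave 2 of the 14 oligodendrocyte probe sets as higher (14.3%) and 1 of the 13 meningeal ones as lower (7.69%). Over all probe sets these shares were 1.84% and 2.68%, and none of the other lists had any. The oligodendrocyte list had the largest median of the mean ratios, 0.25. In all 3 pairs, 4 of its probe sets were higher (28.6%) and 0 lower, beside 6.92% and 9.49% of all probe sets. The medians of the astrocyte, progenitor and neuronal lists in pair 1 were 0.06, -0.05 and -0.03, and the largest mean ratio of a list often came from a single probe set in that pair, at odds with other probe sets of its gene. Gja1, of astrocytes, read 3.89 there on 1 probe set and -0.16 and -0.17 on the others, and Sox2, of progenitors and astrocytes, read 2.02, 1.34, 0.03 and -0.50 on its 4. Gad1, of interneurons, read 2.90 and -0.22, and Mbp, of oligodendrocytes, read 2.31, 0.26 and -0.11. Syt1, of neurons, and Ttr, of choroid plexus, each with 1 probe set, read 2.53 and 4.59. Ptgds, of meninges, had 3.20 in pair 2, and the largest mean ratios of the endothelial, microglial and mural lists were 0.63 (Kdr), 0.26 (Cx3cr1) and 0.17 (Pdgfrb). The part of cell composition in the member values was not tested.

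Hes1, the repressor best known as a direct Notch target, was lower after gabazine in every pair, and by a small amount. Its single probe set (1387036_at) had log2 intensities of 9.33, 9.28 and 9.32 in gabazine samples and 9.55, 9.44 and 9.57 in control samples. All 3 gabazine values lay below all 3 control values, which held for no other member and, in this direction, for 0.0965% of all probe sets. The log2 ratios were -0.22, -0.16 and -0.26 in pairs 1, 2 and 3, with a mean of -0.21 ± 0.05 (SD, n = 3 pairs) and a limma standard error of 0.04, so that gabazine samples held 0.862 of the control level. The gap between the arrays of a pair was thus wider than the spread within either condition on the deposited values. The medians of whole arrays were 8.71, 7.89 and 8.68 in gabazine samples and 8.63, 7.90 and 8.71 in control samples. Levels of different pairs were thus not on 1 scale, which affects the 0.0965%, so nothing is read from that share. In pairs 1, 2 and 3, 22.7%, 15.9% and 8.95% of all probe sets had a ratio lower than that of Hes1, so its place in any single pair was not extreme. The mean stayed between -0.24 and -0.18 with any pair left out and under 3 other scalings of the arrays. Every pair was lower under each of these scalings, whereas leaving out a pair cannot change the sign of the others. Measured from the median of its own array, Hes1 stood at 0.62, 1.39 and 0.63 in gabazine samples and 0.92, 1.55 and 0.87 in control samples, where the groups overlapped.

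The repressor Hes5 was not lower in all pairs on either probe set of the deposited values, although 1368942_at was after quantile normalization (mean -0.04). The probe set 1375713_at had log2 intensities of 8.18, 7.49 and 8.64 in gabazine samples and 7.74, 7.65 and 8.64 in control samples. Its ratios were 0.44, -0.16 and 0.00, the last being an exact tie, with a mean of 0.09 ± 0.31 (SD, n = 3 pairs) that turned to -0.08 without pair 1. The other probe set (1368942_at) had 7.12, 6.41 and 7.15 in gabazine samples and 7.12, 6.41 and 7.17 in control samples, with exact ties in pairs 1 and 2. Neither probe set separated the conditions.

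Hey1, a repressor that pairs with Hes proteins, was lower in 2 of 3 pairs. Its log2 intensities were 12.09, 11.89 and 12.44 in gabazine samples and 12.50, 11.88 and 12.57 in control samples, so the groups overlapped. The log2 ratios were -0.41, 0.01 and -0.13, with a mean of -0.17 ± 0.21 (SD, n = 3 pairs) and a limma standard error of 0.11, and without pair 1 the mean was -0.06. Its sign in pair 2 depended on the scaling, since all 3 pairs were lower after quantile normalization (mean -0.19) and cyclic loess (mean -0.16). Hey1 and Hes1 thus shared a direction in pairs 1 and 3 on the deposited values.

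**Figure D2:**
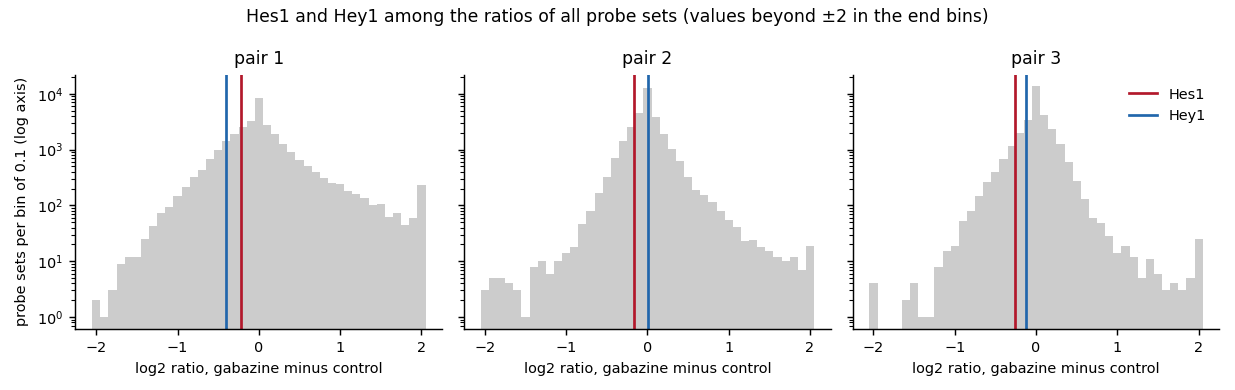
Log2 ratios (gabazine minus control) of all 31099 probe sets in bins of 0.1, with the number of probe sets on a log axis and 1 panel per pair, and lines at Hes1 and Hey1. Hes1 lies at -0.22, -0.16 and -0.26, inside the bulk of the distribution in each pair, and Hey1 at -0.41, 0.01 and -0.13.

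The receptors differed among themselves. Notch1 was the only receptor with lower values in every pair. On probe set 1371491_at it had log2 intensities of 10.47, 9.73 and 10.81 in gabazine samples and 10.51, 10.01 and 10.97 in control samples, with ratios of -0.03, -0.28 and -0.17 and a mean of -0.16 ± 0.12 (SD, n = 3 pairs), or -0.10 without pair 2. On probe set 1390426_at it had 10.01, 9.85 and 10.52 in gabazine samples and 10.06, 9.86 and 10.61 in control samples, with a mean ratio of -0.05 ± 0.04, or -0.03 without pair 3. The pairs differed by more than the conditions on both probe sets, the groups overlapped, and after quantile normalization or cyclic loess neither probe set was lower in all pairs.

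Notch2 and Notch3, receptors also found on glia and on the mural cells of vessels, were not lower in any pair on the deposited values, although Notch2 read -0.02 in its lowest pair after quantile normalization. Notch2 had log2 intensities of 6.82, 5.94 and 6.66 in gabazine samples and 6.24, 5.94 and 6.58 in control samples. Notch3 had 7.46, 6.93 and 7.43 in gabazine samples and 6.82, 6.87 and 7.43 in control samples. Most of both means came from pair 1, with ratios of 0.58 and 0.64, while Notch2 was tied in pair 2 and Notch3 in pair 3. The means were 0.22 ± 0.31 for Notch2 and 0.23 ± 0.35 for Notch3 (SD, n = 3 pairs), below their own spread, and without pair 1 they were 0.04 and 0.03.

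The ligands, which sit on the signal-sending cell, had ratios close to 0 in most pairs. Jag1 had log2 intensities of 9.04, 8.98 and 10.05 in gabazine samples and 9.15, 9.07 and 10.05 in control samples, a mean ratio of -0.07 ± 0.06 (SD, n = 3 pairs) that lay between -0.10 without pair 3 and -0.04 without pair 1. Jag2 had 7.87, 6.36 and 7.63 in gabazine samples and 7.87, 6.72 and 7.65 in control samples, and its mean of -0.13 ± 0.20 rested on pair 2, where the ratio was -0.36 (mean without it -0.01). Dll1 had 7.88, 6.93 and 7.51 in gabazine samples and 7.88, 6.69 and 7.51 in control samples. Dll1 was tied in pairs 1 and 3, and its only difference was 0.24 in pair 2. The groups overlapped for all 3 ligands.

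Rbpj, the DNA-binding protein that represses its targets without the Notch intracellular domain and activates them with it, gave opposite signs on its 3 probe sets. The probe set 1381969_at had log2 intensities of 11.78, 11.00 and 12.16 in gabazine samples and 12.19, 11.24 and 12.17 in control samples, a mean ratio of -0.22 ± 0.20 (SD, n = 3 pairs), and -0.12 without pair 1. The probe set 1392668_at had 8.85, 6.65 and 7.52 in gabazine samples and 7.61, 6.97 and 7.44 in control samples, and the probe set 1379302_at had 10.37, 8.68 and 9.61 in gabazine samples and 9.76, 8.94 and 9.59 in control samples. In pair 1 these 3 probe sets read -0.41, 1.24 and 0.61, so that probe sets of a single gene on the same arrays disagreed by more than any member differed in pairs 2 and 3. In pair 2 they read -0.24, -0.32 and -0.26, all lower, and in pair 3 -0.01, 0.08 and 0.02. The mean over all 3 probe sets was 0.08, opposite in sign to 1381969_at, so no direction is given for Rbpj. Pair 1 is the pair in which the 5′ and 3′ ends of the control transcripts also differed most.

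**Figure D3:**
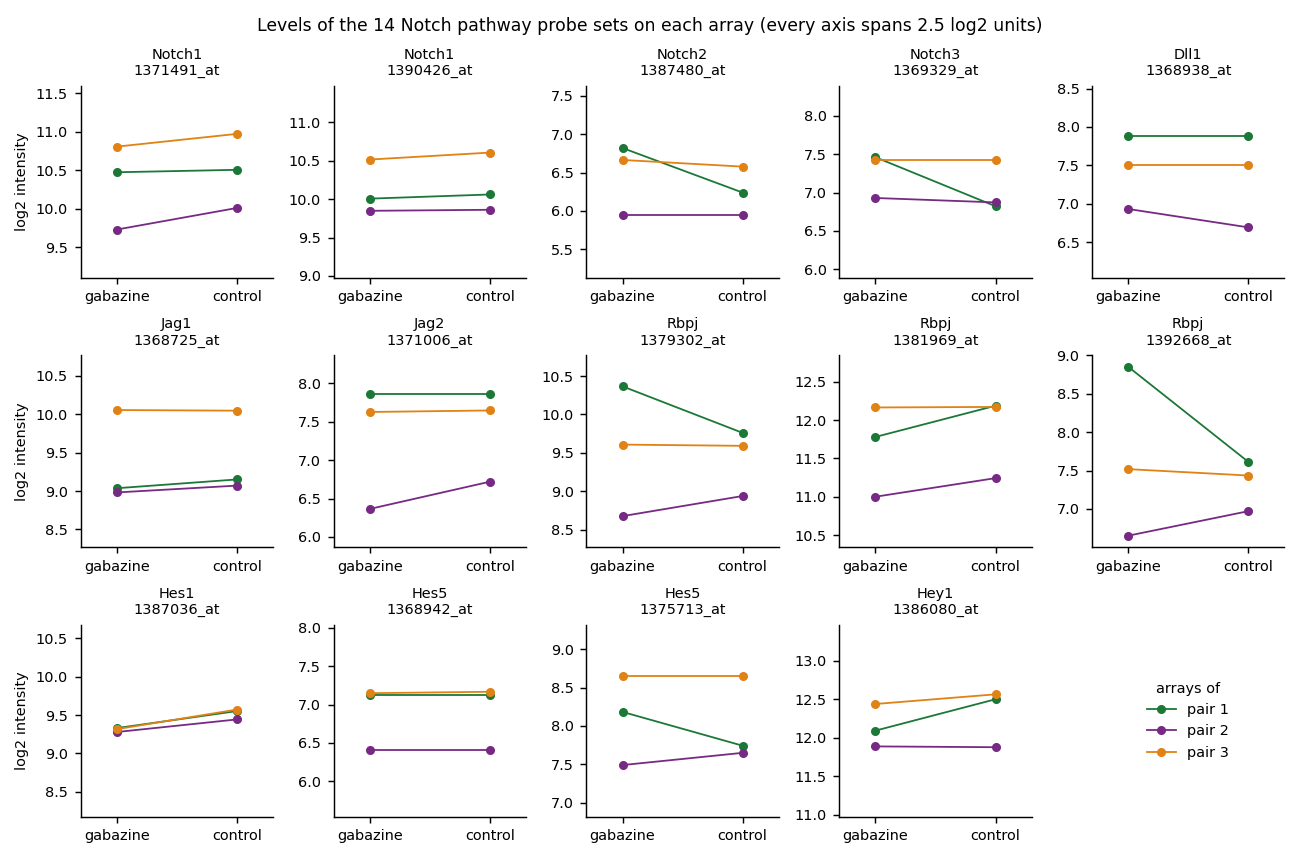
Log2 intensity (y axis, each panel spanning 2.5 log2 units) of the 14 Notch pathway probe sets in gabazine and control samples, with 1 point per array and a line joining the arrays of a pair. Hes1 is the only panel in which all 3 gabazine points, 9.28 to 9.33, lie below all 3 control points, 9.44 to 9.57.

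Over the 14 probe sets, 4 were lower in all 3 pairs, namely Hes1, both of Notch1 and 1381969_at of Rbpj, and 0 were higher in all 3. Of all probe sets on the array, 9.49% were lower and 6.92% higher in all pairs, and this balance turned to 10.2% lower and 14.9% higher with arrays centred on their median and to 12.1% and 17.0% after cyclic loess, while quantile normalization gave 16.8% lower and 10.8% higher. The split between the directions moved with the scaling, with 3 lower and 2 higher once arrays were centred on the median, 4 lower and 1 higher for quantile normalization, and 4 lower and 2 higher for cyclic loess, the higher ones being Notch2 or Notch3. The limma test called 0 of the 14 at an adjusted p under 0.05, beside 0% of all probe sets, with 0.467 as the lowest adjusted p on the array. Before adjustment, 1 member (Hes1, 7.14%) was under 0.05 and lower and 0 were higher, beside 2.68% of all probe sets lower and 1.84% higher, and nothing is read from this since the contrast chose the genes. The median ratio of the members was -0.03, against 0.00 over all probe sets. The medians by pair were 0.00 for pair 1, -0.12 for pair 2 and 0.00 for pair 3, where 6, 9 and 7 of the 14 were lower and 5, 3 and 4 were higher. Exact ties in at least 1 pair touched 6 of the 14, and 6 were among the 40% of probe sets with the lowest mean. The 6 dim ones were Notch2, Notch3, Dll1, Jag2, 1368942_at of Hes5 and 1392668_at of Rbpj.

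**Figure D4:**
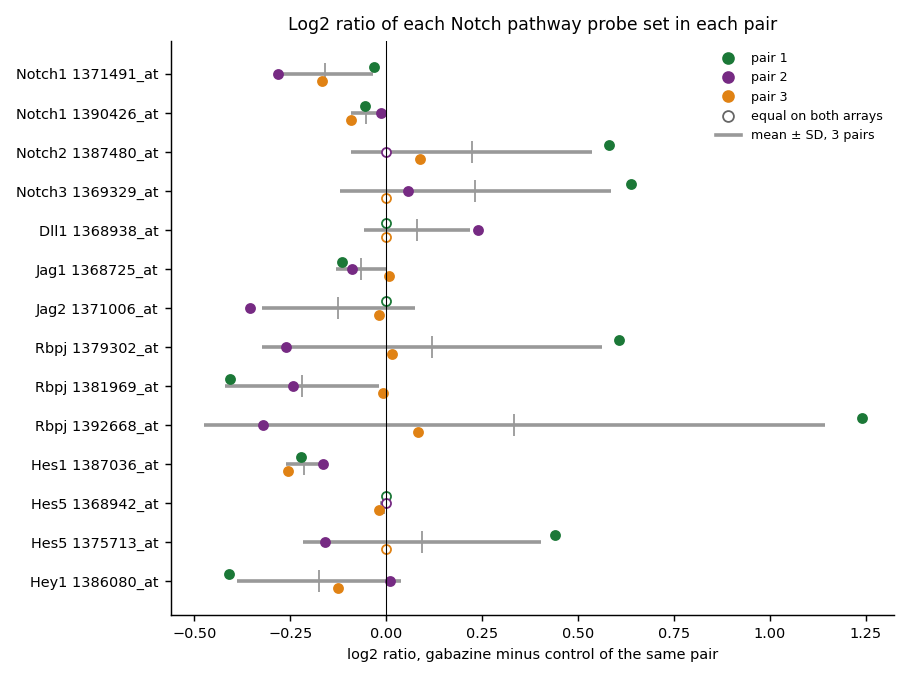
Log2 ratio (x axis, gabazine minus control) of each Notch pathway probe set, with 1 point per pair, open where both arrays held the same value, and a bar for the mean ± SD of 3 pairs. The Hes1 points lie together between -0.26 and -0.16, whereas the Rbpj probe sets span -0.41 to 1.24 in pair 1.

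The genes whose pair ratios were most like those of Hes1 were sought among the 11383 probe sets with 1 symbol and no tie, by the Euclidean distance between the 3 ratios. The nearest were Zcchc14 at 0.031 (-0.24, -0.14 and -0.24), Atat1 at 0.033 (-0.24, -0.14 and -0.24), which encodes a tubulin acetyltransferase, and Cep63 at 0.036 (-0.23, -0.13 and -0.25), which encodes a centrosomal protein. Within a distance of 0.1 lay 45 of the 11383 probe sets, and 0 of them belonged to another Notch pathway member. The 6 member probe sets with a tie were left out of the search. With so small a share of the compared probe sets within this distance, nothing is read from the 0. The likeness was computed over 3 pairs only.

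The remaining genes of the pathway were followed through a list of 77 names ordered by role, of which 60 genes were measured on 95 probe sets. The other 17 names were not analysed here. No probe set of these genes passed an adjusted p of 0.05 in limma, the smallest being 0.747, beside 0% of all probe sets on the array. At an unadjusted p under 0.05, 4 were higher (4.21%) and 3 lower (3.16%), beside 1.84% and 2.68% of all probe sets. The split was 2 higher and 1 lower with centred arrays, beside 1.5% and 2.39% of all probe sets. It was 5 higher and 2 lower for quantile normalization (1.79% and 2.93% of all), and 5 higher and 1 lower for cyclic loess (2.11% and 2.56%). In all 3 pairs, 10 were higher (10.5%) and 5 lower (5.26%), beside 6.92% and 9.49% of all probe sets. The median ratio was 0.06, and 32 of the 95 were tied in at least 1 pair. Without the pairing 0 passed an unadjusted p of 0.05 in either direction, beside only 0.267% higher and 0.00322% lower of all probe sets. Leaving out pair 2 gave 8 higher and 3 lower, beside 2.65% and 4.06% of all probe sets. Leaving out pair 3 gave 2 higher and 1 lower, beside 1.48% and 2.08%.

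On the side of ligands and receptors, Neurl1, a Neuralized ubiquitin ligase, known in flies for acting on Notch ligands, had log2 intensities of 11.27, 9.86 and 10.34 in gabazine samples and 11.13, 9.72 and 10.18 in control samples. Its mean ratio was 0.14 (limma unadjusted p = 0.0168, adjusted p = 0.747), and the ratios of 0.14, 0.14 and 0.16 were nearly equal in the 3 pairs. Among the 8 probe sets of glycosylation enzymes and ligand ubiquitin ligases, the highest was Rfng, a fringe glycosyltransferase, at 0.35 with ratios of 0.72, -0.08 and 0.42. Its other probe set had a mean of 0.06. The lowest was Poglut1, an O-glucosyltransferase of Notch, at -0.10, lower in all 3 pairs. Of the 9 probe sets of other receptors and ligands, 7 were tied in at least 1 pair, the highest was Cntn1 at 0.50 with 1.34 in pair 1, and the lowest Dlk2 at -0.09. Among the 9 of the proteases that cut the receptor, Adam10 was highest at 0.70 with ratios of 2.09, 0.00 and 0.00, and Adam17 lowest at -0.07.

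Of the 13 probe sets of receptor inhibitors and turnover factors, Dtx4, a Deltex ubiquitin ligase, had log2 intensities of 11.11, 9.66 and 10.14 in gabazine samples and 10.87, 9.51 and 9.97 in control samples on probe set 1373114_at. Its mean ratio was 0.19 (limma unadjusted p = 0.0144, adjusted p = 0.747), with all 3 pairs higher, and the other Dtx4 probe sets had 0.19 and 0.02. The highest of this group was Numb, an inhibitor of Notch, at 0.25 on 1 probe set and -0.11 on another, and the lowest was Dtx1 at -0.19. Nrarp, itself a Notch target that limits the intracellular domain, had mean ratios of 0.24, 0.04 and 0.07 on its 3 probe sets.

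Among the nuclear cofactors, an unadjusted p under 0.05 was reached by 2 higher and 2 lower of the 23 corepressor probe sets (8.7% each way) and by 1 lower of the 15 coactivator probe sets (6.67%), beside 1.84% higher and 2.68% lower over the whole array. Spen, a corepressor that binds Rbpj, had log2 intensities of 11.13, 9.90 and 11.57 in gabazine samples and 11.32, 10.08 and 11.75 in control samples, with ratios of -0.19, -0.19 and -0.18 on probe set 1389400_at (limma unadjusted p = 0.00798, adjusted p = 0.747). Its other probe set, 1384977_at, had 0.69, 0.00 and -0.15, a mean of the opposite sign (0.18). Cir1, another corepressor of Rbpj, had a mean ratio of -0.19 on probe set 1374408_at (unadjusted p = 0.0285 by limma) and -0.20 on 1386229_at, the 2 lowest values among the corepressors. Going the other way, the Groucho family member Tle5 had 0.33 on probe set 1387861_at (unadjusted p = 0.0317 by limma), and Sin3a, a scaffold for histone deacetylases, had 0.20 on 1397105_at (unadjusted p = 0.0201 by limma). The other probe sets had 0.24 and -0.06 for Tle5 and 0.29 and 0.07 for Sin3a. In all pairs, 5 of the corepressor probe sets were higher (21.7%) and 2 lower (8.7%), beside 6.92% and 9.49% over the whole array. The highest was Hdac1, a histone deacetylase, at 1.02 with ratios of 2.88, -0.09 and 0.27, while its other probe set had 0.14.

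Of the 15 coactivator probe sets, 0 were higher and 2 lower (13.3%) in all pairs, beside 6.92% higher and 9.49% lower over the whole array. These 2 were the histone acetyltransferases Ep300 (1373916_at), with ratios of -0.82, -0.08 and -0.20, and Crebbp (1382264_at), with -0.30, -0.14 and -0.36 and a mean of -0.27 (limma unadjusted p = 0.0234, adjusted p = 0.747). The other Crebbp probe sets disagreed in sign, between -0.24 and 0.45, the upper one with 1.38 in pair 1, and the other Ep300 probe set had 0.10. The Mastermind coactivators Maml1 and Maml2 lay between -0.10 and 0.02.

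Downstream of the pathway, the other Hes-related repressors gave 9 probe sets with a median of 0.05, of which 1 was higher in all pairs. This was Bhlhe40, a repressor of the same structural family that also serves the circadian clock, with log2 intensities of 11.17, 9.47 and 9.95 in gabazine samples and 10.34, 9.36 and 9.36 in control samples. Its ratios were 0.83, 0.11 and 0.59 (limma unadjusted p = 0.0659), opposite in sign to Hes1 in each pair. The lowest of this group was Hey2 at -0.09, and Hes6, which is known to oppose Hes1, had 0.36, 0.26 and -0.22. Of the proneural genes that Hes proteins repress, Neurod1 had -0.31, 0.92 and 0.04, Neurog2 -0.13, 0.27 and 0.00, and Neurog1 0.13, -0.05 and 0.02, none with a common sign over the pairs. Among the 6 probe sets of other Notch targets, the highest was Myc at 0.22 (0.13, -0.28 and 0.80) and the lowest Fabp7, a fatty acid binding protein of radial glia, at -0.04, and Gfap was higher in all pairs at 0.07.

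**Figure D5:**
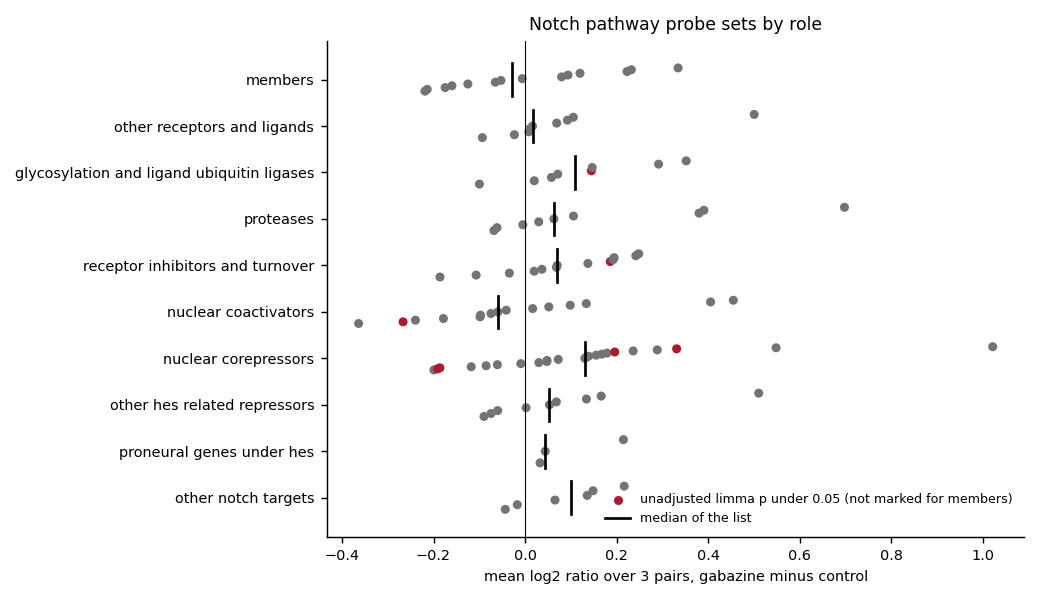
Mean log2 ratio over 3 pairs (x axis, gabazine minus control) of each probe set of the Notch pathway, grouped by role, with a bar at the median of each group. Red points mark an unadjusted limma p under 0.05, except in the row of members. No point is coloured in that row, although Hes1 was under 0.05. The medians lie between -0.06 (nuclear coactivators) and 0.13 (nuclear corepressors), and the 7 red points include Spen and Crebbp on the lower side and Dtx4 and Tle5 on the higher side.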

How the data were processed

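Affymetrix RAT2302 arrays were hybridised with RNA of 3 gabazine and 3 control samples of rat hippocampal slice cultures. The authors processed the scanned images with RMA, and the deposited values are log2 intensities per probe set, with no detection or background measure. Its version and whether it was run jointly on all arrays are not given in the sources used here. Of 31099 probe sets, 20832 carry 1 symbol in the platform annotation, 436 several and 9831 none, and only those with 1 were named. RefSeq (GRCr8) held the Entrez identifier of 20764, and 0 symbols were changed. Gabazine minus control within a replica was fitted with limma 3.58.1 (R 4.3.3), the pair being a block, then eBayes, and p-values were adjusted by Benjamini-Hochberg over the whole array (threshold 0.05). The fit has 2 residual degrees of freedom, and was tested on simulated data. The pairing comes from the series design and the methods. The correlation of the deviations from the group mean, between the arrays of a pair, reached 0.794 (pair 1), 0.664 (pair 2) and 0.853 (pair 3). With 3 pairs the smallest p of an exact sign-flip test is 0.25.

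The members and lists were chosen with earlier results of these data known. Named genes are all members, the highest and lowest probe set of each pathway list and those at an unadjusted p under 0.05, the largest ratio of each marker list, 4 activity-dependent genes and the 3 genes nearest to Hes1. Nrarp, Maml1, Maml2, Hes6, Neurog2, Neurod6, Gfap, further probe sets of named genes and the 2 coactivators lower in all pairs were named after their values were seen. Alternatives were no pairing, each pair left out, 3 scalings, filters on dim and on tied probe sets, eBayes with trend and robust, and the mean of a gene's probe sets. Promoter windows were taken from RefSeq (GRCr8) and searched on both strands.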

Additional observations from a re-analysis of the deposited data

How the results depend on the processing

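The member counts lower in all pairs stayed within 1.5 times of 4 with each pair left out, under the 3 scalings and under both filters. Leaving out a pair or the tied probe sets cannot lower this count, and the other alternatives do not change it. The probe sets behind the counts changed. Only Hes1 was among the probe sets lower in all pairs in every setting. With centred arrays they were Hes1 and both of Notch1. After quantile normalization they were Hes1, 1381969_at of Rbpj, 1368942_at of Hes5 and Hey1. Cyclic loess gave Hes1, 1381969_at of Rbpj, Jag2 and Hey1. The count higher in all pairs, 0 on the deposited values, was 2 with arrays centred on their median, 1 after quantile normalization, 2 after cyclic loess, and ranged over 0 to 3 with each pair left out. With a pair left out, only 2 pairs had to share a sign. Of all probe sets, 13.5% to 19.6% were then higher and 14.6% to 21.5% lower in both, beside 6.92% and 9.49% with 3 pairs. Counts from 2 pairs are thus not comparable with those from 3. The counts at an adjusted p under 0.05 stayed at 0 for members and for the other pathway genes under every alternative. Over the whole array this count was also 0, apart from the fit without a replicate block. The filters on dim and on tied probe sets kept 8 of the 14 members each, with 68 and 63 of the other 95 pathway probe sets after leaving out the dimmest 40% and the tied ones.

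Pathway probe sets higher at an unadjusted p under 0.05, 4 in the paired fit, were 2 with centred arrays, 2 without the dimmest 40%, 2 without tied probe sets, and 2 to 8 with each pair left out, the lowest without pair 3 and the highest without pair 2. Those lower, 3 in the paired fit, were 1 with centred arrays, 1 after cyclic loess, 1 without the dimmest 40%, 0 without tied probe sets, and 1 to 3 with each pair left out, the lowest without pair 3. Of all probe sets, 1.5% were higher with centred arrays, 1.97% without the dimmest 40%, 2.29% without tied ones and 1.48% to 2.65% with each pair left out. The shares lower were 2.39%, 2.82%, 3.18% and 2.08% to 4.06% in the same order, and 2.56% after cyclic loess. With no replicate block both pathway counts were 0, beside 0.267% higher and 0.00322% lower of all probe sets. In that fit limma called 14 of all probe sets at an adjusted p under 0.05, none of them in the pathway. The filters test fewer probe sets, and otherwise the cause was not tested.

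For each member gene the probe set with the highest mean was followed. Of 74 alternative values, 73 moved by less than the SD of its 3 pair ratios. The exception was Rbpj, at 0.08 for the mean of its 3 probe sets against -0.22. Leaving out a pair cannot shift a mean of 3 ratios by their SD, and the filters leave the mean unchanged. In those settings the count could therefore show no instability. The sign could still turn, as for Hes5, at 0.09 on the deposited values and -0.08 without pair 1. Precision is limited by having 6 arrays, and p-values measure the spread between these samples only. How far a dim probe set stood above background could not be read from the values.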
